A study of Mus musculus with 7 samples.

Results

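miR-9, miR-124, miR-128 and miR-137 are the miRNAs best known from the nervous system, and their levels were followed here in vesicles shed by visceral fat. The members were chosen by name: mmu-miR-9-5p, mmu-miR-9-3p, mmu-miR-124-3p, mmu-miR-128-3p and mmu-miR-137-3p, and all 5 stand among the 820 miRNAs of the deposited table. The choice used names only, but it was made with results from these libraries already known, and a miRNA stands in the table only if at least 1 library read it. Extracellular vesicles, small membrane-bound particles shed by cells, were isolated from the epididymal white fat of male ApoE-/- mice. These mice lack apolipoprotein E and develop atherosclerosis, and no group with intact ApoE or on another diet was measured. The labels give an age of 8 weeks and a treatment of 12 weeks. The HFD+Ni group (n = 3 libraries) received a high-fat diet with nicotine at 2 mg/kg/day, and the HFD group (n = 4 libraries) received the high-fat diet alone. The labels do not say whether a library came from 1 animal or from pooled animals, so the tests measure the spread between libraries, which may be partly technical.

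A miRNA is a short RNA that is cut from a hairpin precursor and pairs, mainly through bases 2 to 8 (the seed), with messenger RNAs, which are then repressed. miR-9 and miR-124 promote the step from neural progenitor to neuron, miR-124 being the most abundant miRNA of adult neurons. miR-9 is made as a pair of arms, miR-9-5p and miR-9-3p, and both are known to act in neural cells on the REST and CoREST repressor complex. miR-128 dampens neuronal excitability and is also made in other tissues, skeletal muscle and blood cells among them. miR-137 regulates neuronal maturation and synapses, and the human gene is a schizophrenia locus. Levels in bulk vesicles cannot tell fewer source vesicles from less miRNA in each.

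The mature sequences are shown because they decide which reads can be told apart, with bases 2 to 8 in capitals (RefSeq, GRCm38.p6).
miR-9-5p: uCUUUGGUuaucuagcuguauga
miR-9-3p: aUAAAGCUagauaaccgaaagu
miR-128-3p: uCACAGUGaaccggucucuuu
miR-137-3p: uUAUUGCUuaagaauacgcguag
The 4 seeds differ from each other. A RefSeq mature sequence was matched for 696 of the 820 miRNAs, and apart from the members themselves none of these 696 has one of the 4 seeds at the same position. The letters of the miR-128-3p seed occur shifted within the first 10 bases of 3 other miRNAs, miR-27a-3p, miR-27b-3p and miR-497b.

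Both miR-9 arms come from 3 loci with the same mature sequences, so reads cannot be assigned to 1 of them. Mir9-1 lies at chr3:88215598-88215686 in an intron of the lincRNA Gm3764, Mir9-2 at chr13:83738814-83738885 in an exon of the lincRNA C130071C03Rik, and Mir9-3 at chr7:79505264-79505353 in an intron of Mir9-3hg (all on the plus strand, GRCm38, GENCODE M21). The Mir9-1 hairpin shows how the arms face each other, miR-9-5p first and miR-9-3p second in capitals.
Mir9-1: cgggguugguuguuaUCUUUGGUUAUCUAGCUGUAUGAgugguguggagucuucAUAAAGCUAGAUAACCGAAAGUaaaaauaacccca
The opposite strand of the miR-9-3p arm is annotated as another miRNA, miR-9b-5p, which had 1 read in HFD+Ni replicate 2 and 1 read in HFD replicate 2. miR-128-3p is cut from Mir128-1 (chr1:128202361-128202430, plus strand) and Mir128-2 (chr9:112118636-112118711, minus strand), which lie in introns of the protein-coding genes R3hdm1 and Arpp21. miR-137-3p has 1 locus, Mir137 (chr3:118433857-118433929, plus strand), in an exon of the transcript Gm26871. miR-124-3p has 3 loci, Mir124a-1 in an exon of Mir124a-1hg, Mir124a-2 in an exon of Mir124-2hg, and Mir124a-3, which lies in no other annotated gene.

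Depth limited how much could be seen of the scarce members. The libraries held between 53626 and 1055902 miRNA reads, and levels are in rpm, reads scaled to a library total of 1000000 miRNA reads. One read is worth 18.6 rpm in the shallowest library, HFD+Ni replicate 1, and 0.947 rpm in the deepest, HFD replicate 2. Where no read was found, up to 3 reads remain possible, or 55.9, 17.1 and 27.9 rpm in HFD+Ni replicates 1 to 3, against 37.1, 2.84, 25.5 and 39.0 rpm in HFD replicates 1 to 4. Intervals for single libraries are exact 95% Poisson intervals, and they and these limits cover counting error only. HFD replicate 2 read all 5 members, whereas the other libraries read between 2 and 4. Among those others the number did not follow depth: HFD replicate 4 (77021 reads) read 4, and HFD+Ni replicate 3 (107631 reads) read 2. Thinned to 53626 reads, HFD replicate 2 read 3.

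No shared library pattern was seen among the members. miR-9-3p, miR-124-3p and miR-137-3p had too few reads in most libraries to show one. miR-9-5p varied 114-fold between libraries, whereas miR-128-3p showed no difference between them beyond counting error. miR-137-3p was read in HFD libraries only, and miR-9-3p and miR-124-3p were at the edge of detection. No member passed the test between HFD+Ni and HFD. limma on log2(rpm + 1), fitted to the 387 miRNAs averaging 5 rpm or more, called 0 of them (0%) at an adjusted p below 0.05. At an unadjusted p below 0.05 it counted 11 (2.84%). edgeR called 0, with 28 at unadjusted p below 0.05, and DESeq2 called 1, with 19; the 1 was miR-1a-3p, a muscle miRNA named after its values were seen. Of the 5 members 4 reached that mean, 2 with a log2 fold change above 0 and 2 below, with a median of 0.09 beside 0.04 over all 387. Of these 4 members 0 were called and 1, miR-137-3p, was at unadjusted p below 0.05. The libraries of HFD+Ni and HFD overlapped for every member, whereas they did not overlap for 20 of the 387 (5.17%).

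**Figure D1:**
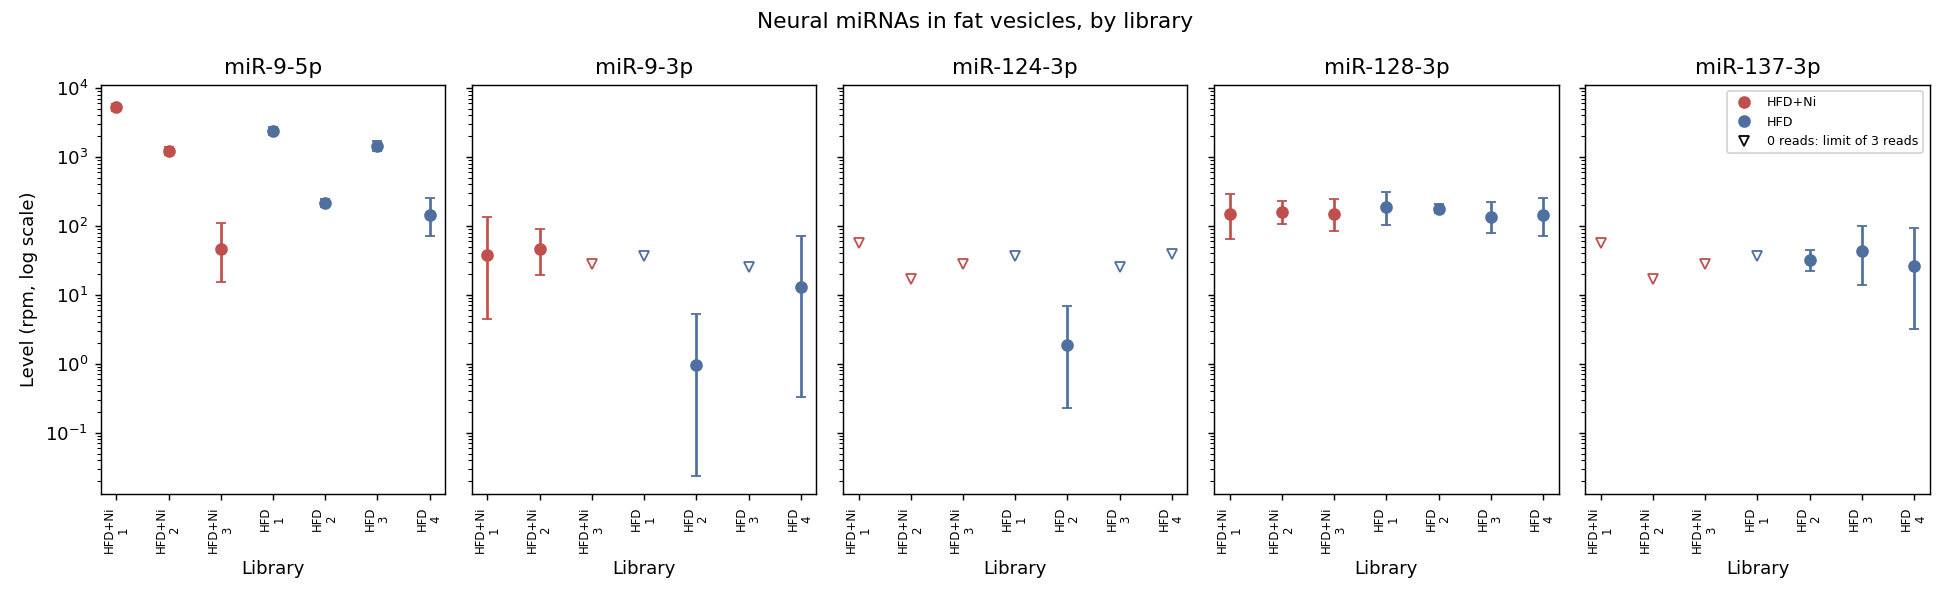
Level of the 5 members in each library in rpm (log axis), HFD+Ni libraries in red and HFD libraries in blue; bars are exact 95% Poisson intervals, and open triangles mark the limit of 3 reads in libraries with 0 reads. miR-9-5p runs from 46.5 to 5277 rpm across the libraries, whereas miR-128-3p stays between 136 and 186 rpm.

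miR-9-5p was the most abundant member, 54th in mean level among the 820 miRNAs. It had 5277, 1205 and 46.5 rpm in HFD+Ni replicates 1 to 3, against 2388, 211, 1439 and 143 rpm in HFD replicates 1 to 4. Both the highest and the lowest library were HFD+Ni libraries, the HFD libraries all lay between them, and the highest was 114-fold above the lowest. In order of level, HFD+Ni replicate 1 stood above HFD replicate 1, and HFD replicate 1 above HFD replicate 3, with counting intervals that do not overlap (4680 to 5929, 2063 to 2750 and 1230 to 1673 rpm). HFD replicate 3 and HFD+Ni replicate 2 (1048 to 1379 rpm) could not be told apart by counting error. A gap followed to HFD replicate 2 (184 to 241 rpm), which overlaps HFD replicate 4 (71.3 to 256 rpm), and that interval overlaps the one of HFD+Ni replicate 3 (15.1 to 108 rpm). The order thus had 4 high and 3 low libraries, and each group holds libraries of both kinds.

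The mean of miR-9-5p was 2176 ± 2747 rpm in HFD+Ni (SD, n = 3) and 1045 ± 1075 rpm in HFD (SD, n = 4), a ratio of 2.08, with a difference smaller than the SD within HFD+Ni and HFD libraries that all lie inside the HFD+Ni range. Its log2 fold change was 0.24 (SE 1.38, 95% interval -2.78 to 3.26), with a limma adjusted p = 0.989. The sign rested on single libraries: the log2 fold change was -1.25 when HFD+Ni replicate 1 was left out and 2.15 when HFD+Ni replicate 3 was. It was also below 0 without HFD+Ni replicate 2 (-0.19), HFD replicate 2 (-0.24) or HFD replicate 4 (-0.42). The authors' deposited table gives a log2 fold change of 0.97 with a p of 0.340.

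miR-9-5p had a wide spread at a high level. It rested on 1096 reads. Within groups its SD on the log2(rpm + 1) scale was 2.69, against a median of 1.92 over the 387 tested miRNAs, and ranked 54th from the highest. Among the 64 miRNAs averaging 1000 rpm or more, a limit chosen after the values were seen, the median SD was 0.44 and miR-9-5p had the highest. Below that limit higher values occur, such as 3.46 for miR-486b-5p at 477 rpm and 3.18 for miR-15a-5p at 364 rpm. The next among the 64 were miR-205-5p at 1.46, miR-200c-3p at 1.28, miR-200b-3p at 1.23 and miR-141-3p at 1.11, all miRNAs of epithelial cells and likewise named after their values were seen. At the other end, miR-128-3p had an SD of 0.17, the 8th lowest of the 387. It had 8 to 28 reads in every library but the deepest, so the rank does not show steadiness beyond counting error.

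**Figure D2:**
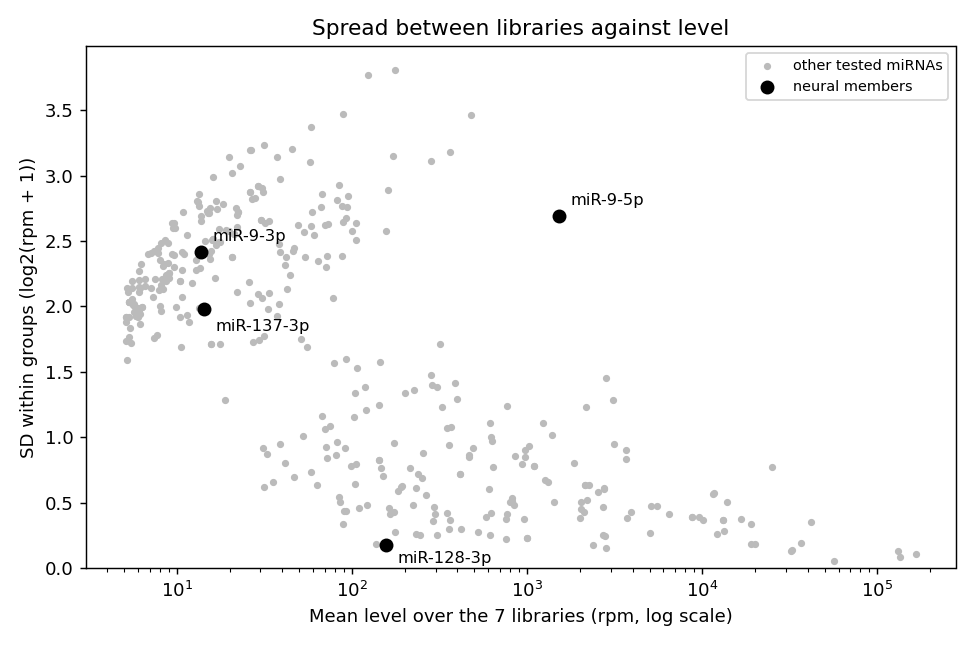
SD within groups on the log2(rpm + 1) scale against the mean level in rpm (log axis), 1 point for each of the 387 tested miRNAs, with the 4 tested members in black. miR-9-5p (SD 2.69) lies apart from other miRNAs above 1000 rpm, and miR-128-3p (SD 0.17) lies at the lower edge.

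Markers of other tissues differed between the libraries too. Over the 7 libraries r of their summed level with miR-9-5p, on the log2(rpm + 1) scale, was 0.52 for epithelial, 0.12 for testis and sperm, 0.01 for leukocyte, -0.37 for muscle, -0.54 for fat and -0.74 for erythroid markers. The 6 epithelial markers (the miR-200 family and miR-205-5p) summed to 45146, 6311 and 6820 rpm in HFD+Ni replicates 1 to 3, against 4813, 9024, 13605 and 5752 rpm in HFD replicates 1 to 4, with no marker unread in any library. The library with the most miR-9-5p was thus also the one with the most epithelial miRNA, but HFD replicate 1, second in miR-9-5p, had the least. The 5 miRNAs linked to fat cells, the tissue named on the labels, summed to 1995 rpm in HFD+Ni replicate 1 and to between 5154 and 6766 rpm elsewhere; the brown-fat miRNA miR-193b-3p was unread in 4 of the 7 libraries. The 4 muscle markers summed to 762 to 1156 rpm in HFD+Ni and to 866 to 4300 rpm in HFD, with miR-206-3p unread in 5 libraries. The summed leukocyte markers (5 miRNAs) ran from 1977 to 3406 rpm in HFD+Ni and from 3272 to 4826 rpm in HFD, with miR-142a-3p unread in HFD+Ni replicate 1. The 2 erythroid markers in the table ran from 0 to 148.7 rpm in HFD+Ni and from 8.51 to 111 rpm in HFD, with miR-144-3p unread in 6 libraries. In those 6 the sum held no marker but miR-451a. The list also named miR-486a-5p, which is not in the table, and did not hold miR-486b-5p, which averaged 477 rpm. The erythroid sum and its r therefore leave out miR-486. The 10 testis and sperm markers ran from 1200 to 2313 rpm in HFD+Ni and from 599 to 1077 rpm in HFD. These sums do not overlap between the groups, as was so for 5.17% of the 387 tested miRNAs, and they were not tested. On average most of the sum was miR-34c-5p and miR-34b-5p, with means of 762 and 294 rpm over the 7 libraries. At least 2 of the 10 were unread in every library except HFD+Ni replicate 3, and in HFD replicate 4 only miR-34b-5p and miR-34c-5p were read. The part of these tissues in the level of miR-9-5p was not tested.

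miR-9-3p, the other arm of the same hairpins, was a trace beside miR-9-5p. It had 37.3, 45.5 and 0 rpm in HFD+Ni replicates 1 to 3 (2, 8 and 0 reads), against 0, 0.95, 0 and 13.0 rpm in HFD replicates 1 to 4 (0, 1, 0 and 1 reads). Of its 12 reads 10 fell in HFD+Ni, 8 of them in 1 library. It averaged 5 rpm or more only through its HFD+Ni libraries, so this filter favoured a positive value. The mean was 27.6 ± 24.2 rpm in HFD+Ni (SD, n = 3) and 3.48 ± 6.35 rpm in HFD (SD, n = 4), with groups that overlap, and the log2 fold change of 2.41 (SE 1.86, 95% interval -1.66 to 6.47) did not pass (limma adjusted p = 0.830). Over all libraries miR-9-5p made up 98.9% of the reads of the 2 arms (exact 95% interval 98.1% to 99.4%). Its share was 99.3% (97.5% to 99.9%) and 96.4% (93.0% to 98.4%) in HFD+Ni replicates 1 and 2. In HFD replicates 1, 2 and 3 it was 100% (98.1% to 100%), 99.6% (97.5% to 100%) and 100% (97.8% to 100%). HFD+Ni replicate 2 thus had the lowest share among the 5 libraries with over 100 reads of miR-9, and its interval overlaps that of HFD+Ni replicate 1. miR-9-3p was unread in HFD replicates 1 and 3, which had 2388 and 1439 rpm of miR-9-5p. The intervals of both libraries include the 98.9% over all libraries, so a different pattern of the 2 arms was not shown in them. Only the interval of HFD+Ni replicate 2, the library with 8 of the 12 reads of miR-9-3p, lies below 98.9%. A lower share there rests on this 1 library.

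miR-128-3p was the steadiest member. It had 149.2, 159 and 148.7 rpm in HFD+Ni replicates 1 to 3 (8, 28 and 16 reads), against 186, 177, 136 and 143 rpm in HFD replicates 1 to 4 (15, 187, 16 and 11 reads). All HFD+Ni values fell inside the range of the HFD values, and the Poisson interval of every one of the 7 libraries contained the mean over libraries, 157 rpm. Intervals at few reads are wide, such as 64.4 to 294 rpm in HFD+Ni replicate 1, and differences within them cannot be seen. The mean was 152 ± 5.94 rpm in HFD+Ni (SD, n = 3) and 160 ± 24.5 rpm in HFD (SD, n = 4), a ratio of 0.950. The log2 fold change was -0.06 (SE 0.58, limma adjusted p = 0.996), and its 95% interval of -1.32 to 1.19 includes both increases and decreases. The opposite arms of its precursors were nearly unread: miR-128-1-5p had 2 reads, both in HFD replicate 2, beside 187 reads of miR-128-3p there. Across all libraries miR-128-3p was 99.3% of the reads of that pair (exact 95% interval 97.5% to 99.9%).

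miR-137-3p was read in HFD libraries only. It had 0 rpm in all 3 HFD+Ni replicates, against 0, 32.2, 42.6 and 26.0 rpm in HFD replicates 1 to 4, from 0, 34, 5 and 2 reads. HFD replicate 1 was at 0 like the HFD+Ni libraries, so the groups overlap. Of the 41 reads 34 came from the deepest library. At the HFD mean of 25.2 ± 18.1 rpm (SD, n = 4), the HFD+Ni replicates would hold 1.35, 4.43 and 2.71 reads. The limit of 3 reads lies above every HFD value in HFD+Ni replicate 1 (55.9 rpm), and only in HFD+Ni replicate 2 (17.1 rpm) does it lie below all 3 HFD libraries with reads. A limit of 3 reads over the pooled HFD+Ni libraries was 8.90 rpm. The HFD mean was 2.83-fold this limit, and between 2.18 and 3.77-fold with 1 HFD library left out. This sets a mean over libraries against a limit of pooled reads that covers counting error only. It is therefore no bound on the difference between the groups. Among all 387 tested miRNAs, 24 (6.2%) had no read in HFD+Ni.

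The limma log2 fold change of miR-137-3p was -3.81 (SE 1.73, unadjusted p = 0.0481, adjusted p = 0.830), a value that depends on the pseudocount, since 1 group is at 0. miR-137-3p passed the filter on low values through its HFD libraries alone, so a negative value was given by the filter. The share of tested miRNAs at unadjusted p under 0.05 and lower in HFD+Ni was 1.29%. The unadjusted p stayed under 0.05 in 1 of the 7 fits with 1 library left out, the one without HFD replicate 1. The count models gave adjusted p = 0.616 in edgeR and adjusted p = 0.869 in DESeq2, and the authors' deposited table gives a log2 fold change of -5.64 with a p of 0.0247 and an FDR of 1.

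miR-124-3p was practically unread. It had 2 reads, 1.89 rpm (Poisson interval 0.229 to 6.84 rpm), in HFD replicate 2 and 0 in the 6 other libraries, where even 1 read would be 5.69 rpm or more. A level as in HFD replicate 2 was therefore not detectable elsewhere at this depth, and no comparison between the groups was made. In the 3 HFD+Ni libraries its limits were 55.9, 17.1 and 27.9 rpm.

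**Figure D3:**
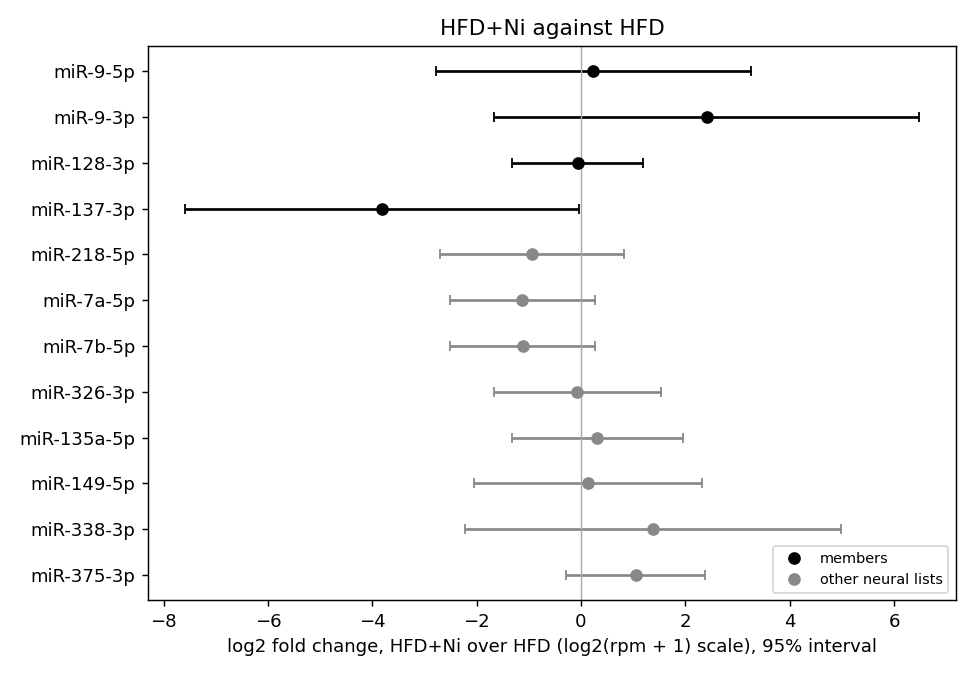
Log2 fold change of HFD+Ni over HFD on the log2(rpm + 1) scale with its limma 95% interval, for the 4 tested members (black) and the other neural, glial and neuroendocrine miRNAs averaging 50 rpm or more (grey). The interval of miR-137-3p ends at -0.04, and those of miR-9-5p, miR-9-3p and miR-128-3p include 0.

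Correlations put the likeness between the members in numbers. Over the 7 libraries, on the log2(rpm + 1) scale, Pearson's r was 0.33 between miR-9-5p and miR-9-3p, 0.13 between miR-9-5p and miR-128-3p, and -0.27 between miR-9-5p and miR-137-3p. It was -0.20 between miR-9-3p and miR-128-3p, -0.26 between miR-9-3p and miR-137-3p, and -0.28 between miR-128-3p and miR-137-3p. Spearman's rho for these 6 pairs ran from -0.45 to 0.29. For comparison, the 74691 pairs of tested miRNAs had a median r of 0.04 and a 5th to 95th percentile range of -0.69 to 0.74, and all 6 pairs over the 7 libraries lay inside it. With the 2 libraries farthest from the median of miR-9-5p left out (HFD+Ni replicate 3 and HFD replicate 4), r was 0.35 for the 2 miR-9 arms, -0.35 for miR-9-5p with miR-128-3p and -0.66 for miR-9-5p with miR-137-3p. With the 2 libraries farthest from the median of miR-9-3p left out (HFD+Ni replicates 1 and 2), r was -0.27 for miR-9-3p with miR-128-3p and 0.46 for miR-9-3p with miR-137-3p, a change of sign. Without the 2 farthest for miR-128-3p (HFD replicates 1 and 2), r was -0.85 for miR-128-3p with miR-137-3p. Within the 4 HFD libraries r was -0.82 for the 2 miR-9 arms, where miR-9-3p had 2 reads in all. All points share their libraries and depths, and with 7 libraries and few reads for most members these values are descriptions. In the summed level of the 5 members miR-9-5p was 96.6%, 85.5% and 23.8% in HFD+Ni replicates 1 to 3, against 92.8%, 49.9%, 88.9% and 44.0% in HFD replicates 1 to 4. In HFD+Ni replicate 3 most of the rest was miR-128-3p. That sum was 2356 ± 2759 rpm in HFD+Ni (SD, n = 3) and 1235 ± 1069 rpm in HFD (SD, n = 4). Pooling the reads over each group gave 1667 rpm for HFD+Ni and 654 rpm for HFD.

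The miRNAs most like miR-9-5p over the libraries, among the 200 others with a mean of at least 50 rpm, were let-7e-5p (r = 0.86), miR-20a-5p (r = 0.85) and miR-149-5p (r = 0.81). miR-20a-5p, a growth-promoting miRNA of the miR-17-92 cluster, had 428.9, 79.6 and 27.9 rpm in HFD+Ni replicates 1 to 3, against 148, 139, 162 and 26.0 rpm in HFD replicates 1 to 4. Its highest library was also that of miR-9-5p. let-7e-5p moved in a far smaller range, 30270 to 38416 rpm in HFD+Ni and 31433 to 42551 rpm in HFD. With 1 library left out at a time, r stayed between 0.75 and 0.95 for let-7e-5p, 0.78 and 0.94 for miR-20a-5p, and 0.64 and 0.89 for miR-149-5p. Outside the libraries with the most and the least miR-9-5p, HFD+Ni replicates 1 and 3, miR-149-5p only ran from 67.2 to 99.0 rpm and did not rise with miR-9-5p. The highest r of a miRNA of at least 50 rpm with any other had a median of 0.95, above the 0.86 reached by miR-9-5p, and 21 of the 201 had a lower one than miR-9-5p. For miR-9-3p the most alike were miR-425-3p (r = 0.82), miR-210-3p (r = 0.79) and miR-10a-3p (r = 0.78), and for miR-128-3p miR-125b-2-3p (r = 0.82), miR-22-3p (r = 0.77) and miR-145a-3p (r = 0.68). These values too lie below the median of 0.95, and that of miR-145a-3p fell to 0.55 with 1 library left out. miR-9-3p had 12 reads in all, and miR-128-3p showed no difference between libraries beyond counting error. Their likenesses cannot be told from counting error.

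**Figure D4:**
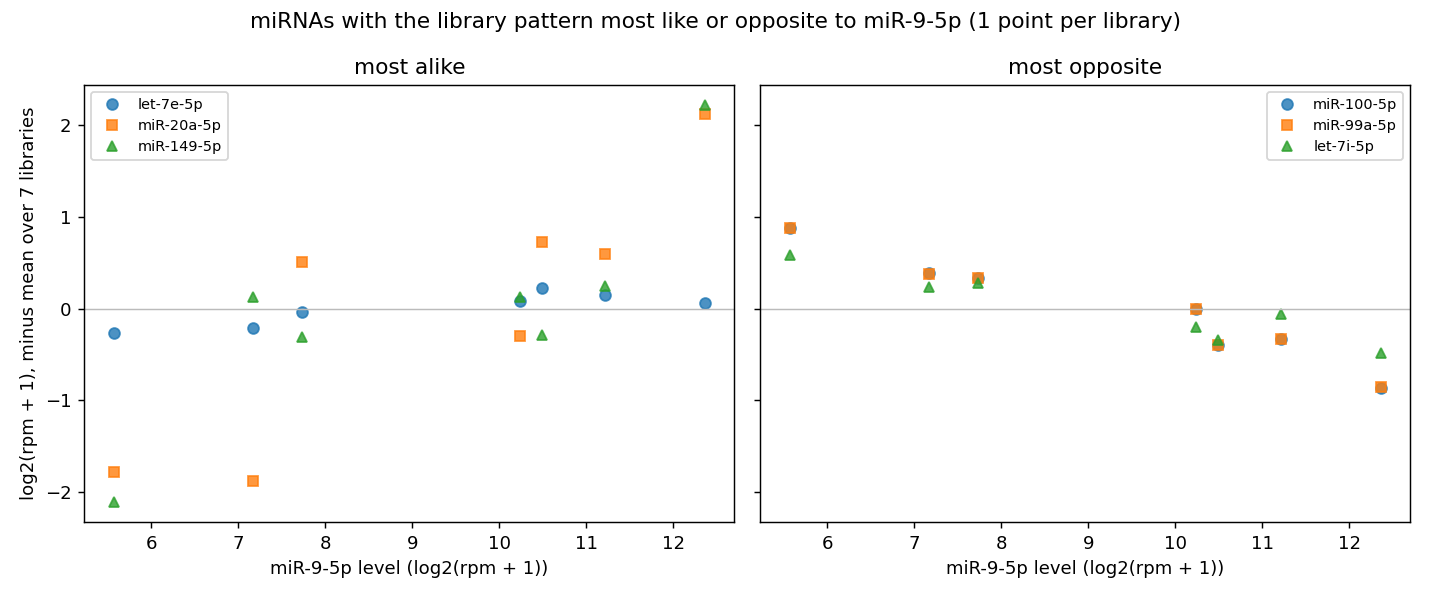
Level of the 3 miRNAs most alike (left) and most opposite (right) to miR-9-5p, as log2(rpm + 1) minus the mean over the 7 libraries, against miR-9-5p on the log2(rpm + 1) scale, 1 point per library and miRNA. miR-20a-5p climbs with miR-9-5p (r = 0.85), and let-7e-5p hardly moves. The climb of miR-149-5p (r = 0.81) rests on the libraries at both ends, HFD+Ni replicates 1 and 3. The points of miR-100-5p and miR-99a-5p, which have near-equal reads, fall on each other.

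Other miRNAs of the nervous system were counted in the same way. Of 23 further brain-enriched miRNAs 20 stood in the table and 14 were tested, 7 with a log2 fold change above 0 and 7 below, 0 called and 0 at unadjusted p below 0.05 in limma, with a median of -0.01 beside 0.04 over all 387. This count holds miR-129-1-3p and miR-129-2-3p, which have equal reads in every library, as 2 miRNAs. It also counts miR-7a-5p and miR-7b-5p, whose reads are near-equal but not equal, as 2. miR-129-1-3p had 0, 96.7 and 37.2 rpm in HFD+Ni replicates 1 to 3, against 0, 4.74, 17.0 and 0 rpm in HFD replicates 1 to 4, and is named here after its values were seen. The groups overlap; its limma log2 fold change was 2.28 (SE 1.97, adjusted p = 0.830), and the authors' deposited table gives 2.95 with a p of 0.0363 and an FDR of 1. The most abundant were miR-7a-5p and miR-7b-5p, which act in neurons and in endocrine cells and have near-equal reads in every library, so their values are uncertain. miR-7a-5p averaged 113 ± 48.8 rpm in HFD+Ni (SD, n = 3) and 253 ± 123.2 rpm in HFD (SD, n = 4), with a log2 fold change of -1.12 (SE 0.64, limma adjusted p = 0.830). miR-218-5p, a miRNA of motor neurons, averaged 66.1 ± 27.9 rpm in HFD+Ni and 135.3 ± 72.8 rpm in HFD, with a log2 fold change of -0.93 (SE 0.81, limma adjusted p = 0.830). miR-326-3p was nearly level between the groups, with 86.7 ± 21.8 rpm in HFD+Ni and 91.0 ± 21.4 rpm in HFD.

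miR-149-5p and miR-135a-5p peaked in the library where miR-9-5p was highest. miR-149-5p had 392, 91.0 and 18.6 rpm in HFD+Ni replicates 1 to 3, against 99.0, 67.2, 68.1 and 90.9 rpm in HFD replicates 1 to 4. miR-135a-5p, whose reads equal those of miR-135b-5p in every library and are therefore uncertain, had 392, 79.6 and 83.6 rpm in HFD+Ni replicates 1 to 3, against 97 to 119 rpm in HFD. Their log2 fold changes were 0.13 (SE 1.00) and 0.31 (SE 0.75). miR-375-3p, the miRNA of neuroendocrine and islet cells, had 1175, 569 and 343.8 rpm in HFD+Ni replicates 1 to 3, against 359, 113, 443 and 428 rpm in HFD replicates 1 to 4. The groups overlap, and its log2 fold change of 1.05 (SE 0.61) did not pass (limma adjusted p = 0.830).

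Of 4 glial miRNAs 3 stood in the table, and miR-338-3p, a miRNA of myelinating glia, was the 1 tested. It had 37.3, 193.3 and 65.0 rpm in HFD+Ni replicates 1 to 3, against 49.5, 242, 68.1 and 0 rpm in HFD replicates 1 to 4. The values of both groups overlap, with a log2 fold change of 1.38 (SE 1.65, limma adjusted p = 0.856). The authors' deposited list of 15 changed miRNAs includes miR-338-3p at a log2 fold change of 2.40 (p = 0.0285), whereas the authors' deposited table of all miRNAs gives 0.05 (p = 0.943). That list has no column for HFD replicate 2, the library with the most miR-338-3p. It also holds 1 per-sample column that matches no label. Without HFD replicate 2 the limma log2 fold change was 2.38 (SE 1.73, adjusted p = 0.897). The cause of the difference between the authors' values was not tested. None of the 5 members is in the list of 15.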

How the data were processed

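Small RNA libraries of vesicle RNA were compared between HFD+Ni (n = 3) and HFD (n = 4); all carry the batch label 1. The authors deposited RPM values under the name TPM: each column sums to 1000000, and 100% of values come out as whole reads (tolerance 0.1 read). GRCm38 (mm10) and edgeR are listed per the submitters' processing notes; the aligner, the counter and the miRNA annotation were not given in the sources used here. In the deposited table the authors also give a log2 fold change with its p-value and FDR, positive where HFD+Ni is higher. In the deposited list of 15 miRNAs, 1 per-sample column matches no label and was not used.

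limma 3.58.1 (R 4.3.3, mean-variance trend) was fitted to log2(rpm + 1) of the 387 miRNAs averaging 5 rpm or more, two-sided, with Benjamini-Hochberg adjustment over all of them at 0.05. edgeR 4.0.16 (quasi-likelihood) and DESeq2 1.42.0 were run on recovered reads. The fits were run on simulated counts with a log2 fold change of 2 in either direction. limma recovered 55% of these and called 1.1% of the unchanged miRNAs, edgeR 63% and 4.3%, and DESeq2 54% and 5.9%. The simulation gave all miRNAs 1 common spread, unlike these data, so these shares need not hold here. Near-equal reads were sought within 5% or 2 reads per library. Members and lists were chosen with earlier results of these data known. Named beyond the members were the other arms, listed neural miRNAs of at least 50 rpm or at unadjusted p under 0.05, and the 3 miRNAs most correlated with each member read in at least 4 libraries; others were named after their values were seen.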

Additional observations from a re-analysis of the deposited data

Results flagged for a closer look

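In the HFD group of 4 libraries, the highest rpm stood apart from the other 3 for 2 members, by a criterion that takes no account of counting error. miR-9-3p was at 12.98 rpm in HFD replicate 4, which is 1 read, and at 0 to 0.95 rpm in the other 3. miR-124-3p was at 1.89 rpm in HFD replicate 2, which is 2 reads, and at 0 in the other 3. Both values rest on 1 or 2 reads and lie below the limits of 25.5 to 39.0 rpm of the HFD libraries with no read, so the libraries were not shown to differ. Chance meets the criterion in about 1 in 20 groups of measured values, but any miRNA read in only 1 of the 4 libraries meets it by construction. miR-9-5p did not meet this criterion within HFD, where 2 libraries were high and 2 low.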

How the results depend on the processing

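Over 24 alternative settings the number of miRNAs called was 0 except in 2: DESeq2 called 1, and limma without the deepest and the shallowest library called 15 with the 5 rpm filter on the mean over all 7 libraries (chosen after seeing the data), against 0 with the filter on the libraries used. The number at unadjusted p under 0.05 ran from 6 to 29. No member was called under any setting that tested it. miR-9-3p stayed above 0 in all 23 settings that tested it. Its HFD mean of 3.48 rpm is under the 5 rpm filter, so where that filter was used it favoured a positive value. miR-137-3p, at 0 reads in every HFD+Ni library, could only lie below 0. miR-9-5p changed sign in 9 of 24: -0.94 with library weights, -1.72 without the deepest and the shallowest library with either filter, -0.42 with the replicate block on replicates 1 to 3, -0.42 on those replicates without the block (chosen after seeing the data), and from -1.25 to 2.15 with 1 library left out. miR-128-3p was 0.12 after thinning, 0.00384 without the deepest and shallowest library with either filter, and from -0.14 to 0.0116 with 1 library left out. For these 2 members the cause was not tested.

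Same-numbered libraries deviated together with correlations of 0.016, 0.189 and -0.099 for numbers 1 to 3. The 0.189 was the highest of all pairs of an HFD+Ni and an HFD library. These values neither show nor exclude a pairing by number. The replicate block gave 0 calls, as did the same libraries without it. Not every library correlated best with its own number.

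The r of miR-9-5p with miR-128-3p was -0.25 after thinning, and that of miR-9-3p with miR-128-3p was 0.42 after thinning and 0.11 by Spearman's rho. With 1 library left out, r ran from 0.0515 to 0.54 for the 2 miR-9 arms, from -0.15 to 0.32 for miR-9-5p with miR-128-3p, and from -0.51 to 0.087 for miR-9-3p with miR-128-3p. Thinning left 3 members read in HFD replicate 2, against 5 in full. The summed level ran from 803 to 3437 rpm in HFD+Ni and from 789 to 1538 rpm in HFD with 1 library left out. Depth limits every value of miR-9-3p, miR-124-3p and miR-137-3p.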

Other observations

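The miRNAs whose library pattern was most opposite to miR-9-5p were miR-100-5p (r = -0.97), miR-99a-5p (r = -0.97) and let-7i-5p (r = -0.95), named after their values were seen. miR-100-5p and miR-99a-5p have near-equal reads and count as 1 here. miR-100-5p had 1100, 1990 and 3661 rpm in HFD+Ni replicates 1 to 3, against 1584, 2519, 1515 and 2610 rpm in HFD replicates 1 to 4. With 1 library left out, r stayed between -0.99 and -0.95 for miR-100-5p and between -0.99 and -0.90 for let-7i-5p. Among the 201 miRNAs of at least 50 rpm the lowest r of a miRNA with any other had a median of -0.89, and 14 of them, miR-9-5p included, had one at least as low as that of miR-9-5p.

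The reads of miR-9-5p did not follow depth. In 5 libraries there were between 169 and 283 reads of it, although their totals ran from 53626 to 1055902 miRNA reads, and the other 2 had 5 and 11 reads. miR-128-3p, by contrast, had its most reads, 187, in the deepest library and its fewest, 8, in the shallowest.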
